A study of Homo sapiens with 8 samples.

Results

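The nuclear-encoded respiratory chain genes are the genes in the cell nucleus that code for subunits of the mitochondrial respiratory complexes I to IV, of ATP synthase (complex V) and for some of their assembly factors. They were chosen by name, as protein-coding genes on nuclear chromosomes whose symbol begins with NDUF, with SDH and a letter from A to D, with UQCR, with COX and a digit from 4 to 8, or with ATP5. The rule gave 103 members among 58302 genes, and 91 of them had enough counts to be tested. The members were 45 complex I genes (7 core subunits, 30 supernumerary subunits and 8 assembly factors), 8 of complex II (4 subunits and 4 assembly factors), 9 of complex III, 19 of complex IV, 20 of complex V and 2 read-through transcripts. NDUFA4 and NDUFA4L2 carry complex I names but were counted in complex IV, where their products belong.

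The RNA came from RD cells, an established line from a human rhabdomyosarcoma, which is a cancer with features of skeletal muscle. The control group carried a short hairpin RNA of scrambled sequence and the shPROX1 group carried a hairpin against PROX1, a homeobox transcription factor, so that both groups share the cell line and the hairpin treatment. Each group had 4 libraries, described in the series design as biological replicates. The sources used here do not give the promoter driving the hairpins, the number of hairpins, the time after silencing or whether the cells were clones.

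Complex I takes electrons from NADH and complex II takes them from succinate; both pass them to coenzyme Q, complex III passes them on to cytochrome c, and complex IV hands them to oxygen. Complexes I, III and IV pump protons out of the matrix, and ATP synthase lets them back through its ring of c subunits to make ATP. Complex II is built from nuclear genes alone, whereas complexes I, III, IV and V also need subunits encoded in the mitochondrial genome, and several complex IV genes have a second copy used in muscle, heart, lung or testis.

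Libraries held 3747090 to 4865161 counts. PROX1 RNA was 18.6 ± 2.50 CPM (SD, n = 4; CPM is the count scaled to a common library total) in the controls and 8.91 ± 1.16 CPM in shPROX1 cells, a log2 change of -1.07 ± 0.15 (SE; edgeR quasi-likelihood test, adjusted p = 4.89e-06), and its groups did not overlap. Of 11 tested muscle lineage markers, 0 were called higher and 8 lower (72.7% called, against 35.2% of all tested genes). MYOD1, CHRNA1 and PAX3 were not called, with log2 changes of 0.04, 0.01 and 0.14. The muscle markers summed to 2701 to 2784 CPM in controls and 2220 to 2303 CPM in shPROX1 cells, and MYF5 was at 0 counts. Fibroblast markers (3 tested, 2 higher and 1 lower) summed to 10673 to 11557 CPM and 8107 to 8662 CPM; nearly all of this was COL3A1, which fell, whereas COL1A1 and THY1 rose. Epithelial markers (3 tested, 2 higher; KRT5 and KRT14 at 0) summed to 179 to 212 CPM and 265 to 294 CPM, and endothelial markers (1 tested, not called; CDH5, ERG and LYVE1 at 0) to 38.6 to 52.7 CPM and 41.5 to 46.0 CPM. The part of these shifts in the results below was not tested. In bulk RNA, fewer cells of a type and less RNA per cell cannot be told apart.

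Most of the nuclear-encoded chain genes kept a similar RNA level after PROX1 silencing, and the changes that passed the test were small and went both ways. Of the 91 tested members, 9 were called higher, 3 lower and 79 were not called at an adjusted p below 0.05, whereas the same fit called 35.2% of all 12392 tested genes, 17.3% higher and 17.9% lower. The called share among members was 13.2%. The 3 that fell were NDUFS1 and NDUFB5 of complex I and ATP5F1A of complex V, and the 9 that rose were NDUFS3, NDUFA10, NDUFA12, NDUFB9, NDUFAF2, SDHB, COX7A2L, ATP5MG and ATP5PB. The largest change among the tested members was 1.29-fold. Beside the 7 rare tissue forms and relatives described further on, the members too low to be tested were NDUFA7 (37 counts in all, with 32.3% of its exon bases in genes on the same strand), UQCRHL (3), ATP5MGL (7) and the read-through transcripts ATP5MF-PTCD1 (7) and NDUFC2-KCTD14 (0).

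The median log2 change over the tested members was -0.00, with 45 above 0 and 46 below, and the median over all tested genes was -0.01. Regardless of direction, the median size of the log2 change was 0.09 for the members and 0.18 for all tested genes. Members were more abundant than most tested genes (a median control level of 69.4 CPM against 34.4 CPM) and had a median standard error of 0.07 against 0.10, so that their lower called share did not go with lower precision. The 95% interval of the change lay within 1.5-fold either way for 87 of the 91 members (95.6%), against 68.5% of all tested genes. Smaller standard errors narrow such intervals and lower the median size of an estimated change. Their part in these 2 contrasts was not tested. The members whose interval reached beyond 1.5-fold were NDUFV2, SDHAF1, SDHAF2 and SDHAF4, all with few counts. In 11 members (12.1%) the 4 controls did not overlap the 4 shPROX1 libraries in CPM, against 32.4% of all tested genes. No member was called against a 1.5-fold change in edgeR's threshold test, and 0 had an unadjusted p below 0.05 there.

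The count of risen members moved with single libraries. It was 16 without control replicate 1 and 4 without shPROX1 replicate 2, and DESeq2 called 5 higher. The count of fallen members was 5 without control replicate 3 or 4. NDUFS1, NDUFB5, ATP5F1A, NDUFA10, NDUFA12, COX7A2L and ATP5MG were called with any single library left out and in each of the other 9 fits that tested against no change. ATP5PB was lost without shPROX1 replicate 2 (edgeR adjusted p = 0.0569). NDUFAF2, NDUFB9, NDUFS3 and SDHB were lost with 5 or 6 of the 8 libraries left out in turn and with DESeq2. Calls were also gained. NDUFA4 gained one with the GC and length offset, the 1 CPM filter, limma voom, no filter and mitochondrial and small RNA genes removed. NDUFS8 gained one with the offset, RLE factors, the 1 CPM filter and those genes removed. Both also gained a call with the replicate block.

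**Figure D1:**
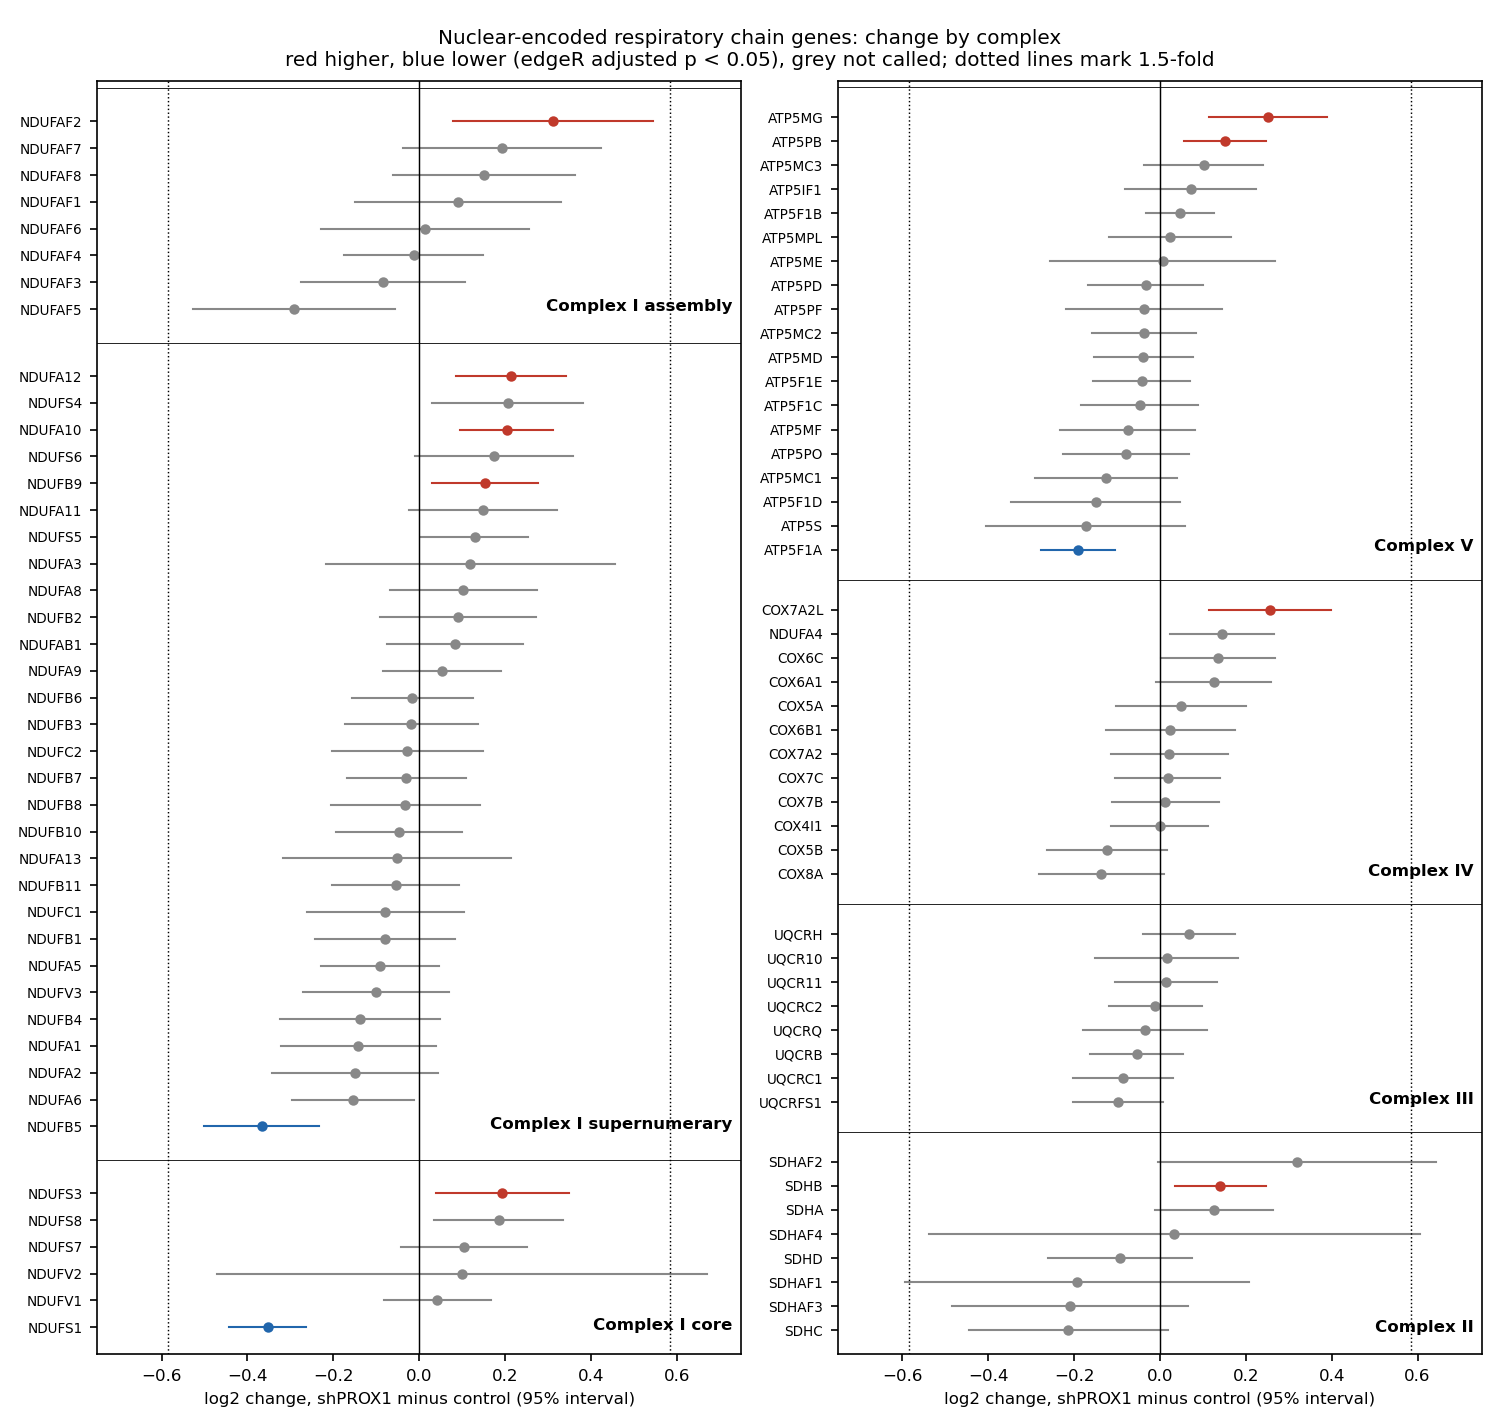
Log2 change of the tested members, 1 of them not drawn (shPROX1 minus control, edgeR) with its 95% interval, ordered within each complex; red points were called higher, blue points lower and grey points were not called, and dotted lines mark 1.5-fold. Complex III holds no called member, and the 3 blue points lie in complexes I and V.

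In the catalytic core of complex I, 1 gene fell, 1 rose and 5 were not called. NDUFS1 (chr2:206114817-206159603 on the minus strand, GRCh38) encodes the largest core subunit, which carries iron-sulfur clusters of the NADH-oxidising arm. Its level was 452, 456, 446 and 452 CPM in control replicates 1 to 4 and 356, 344, 347 and 366 CPM in shPROX1 replicates 1 to 4. Every shPROX1 library lay below every control, and the spread inside each group was small beside the gap. The log2 change was -0.35 ± 0.04 (SE), or 1.28-fold lower (edgeR adjusted p = 9.80e-07). Of its exon bases, 11.7% lie under a gene on the opposite strand, and the neighbouring EEF1B2, a translation elongation factor, had a log2 change of -0.03 (edgeR adjusted p = 0.684).

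NDUFS3 (chr11:47565336-47584562, plus strand), a core subunit of the quinone-binding region, measured 68.1, 55.8, 61.2 and 56.6 CPM in controls and 70.7, 75.5, 64.5 and 65.4 CPM in shPROX1 cells. These groups overlapped, since control replicate 1 was above shPROX1 replicates 3 and 4. Its log2 change of 0.19 ± 0.08 was close to the threshold (edgeR adjusted p = 0.0485), and 19.6% of its exon bases lie in a gene on the same strand. The overlapping PTPMT1 had a log2 change of 0.38 (edgeR adjusted p = 0.0623). NDUFS8, which carries iron-sulfur clusters next to the quinone site, measured 54.1, 61.0, 62.0 and 62.1 CPM against 61.7, 69.1, 75.2 and 66.6 CPM. Its log2 change of 0.18 ± 0.07 missed the threshold (edgeR adjusted p = 0.0516).

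NDUFV1, at the NADH site, had a log2 change of 0.04 ± 0.06 and was not called. NDUFV2, a core subunit of the NADH-oxidising arm, had only 140 counts over the 8 libraries, with 28.4% of its exon bases in genes on the same strand, and its interval ran from -0.47 to 0.67 on the log2 scale. Summed over the 7 core genes, the level was 833 to 868 CPM in controls and 755 to 797 CPM in shPROX1 cells, without overlap. NDUFS1 alone made up 446 to 456 CPM and 344 to 366 CPM of these sums.

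Among the 29 tested supernumerary subunits of complex I, which surround the core and are needed for its stability, 3 rose, 1 fell and 25 were not called. NDUFB5 (chr3:179604690-179627647, plus strand), a subunit of the membrane arm, had the largest fall of the tested members. It measured 83.2, 85.2, 82.0 and 79.4 CPM in controls and 66.2, 68.6, 58.8 and 61.6 CPM in shPROX1 cells, with no overlap. The log2 change was -0.37 ± 0.06, or 1.29-fold lower (edgeR adjusted p = 1.05e-04).

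NDUFA10 (chr2:239892450-240025402, minus strand), a membrane-arm subunit related to nucleoside kinases, measured 113, 119, 113 and 114 CPM in controls and 137, 134, 126 and 131 CPM in shPROX1 cells. All 4 shPROX1 libraries were above all 4 controls, with a log2 change of 0.20 ± 0.05 (edgeR adjusted p = 0.00419). NDUFA12 (chr12:94897055-95003770, minus strand), which sits on the peripheral arm, measured 93.6, 82.7, 94.0 and 84.0 CPM in controls and 102, 104, 96.5 and 108 CPM in shPROX1 cells. Its groups did not overlap either, although the gap between the highest control and the lowest shPROX1 library was narrow. The log2 change was 0.21 ± 0.06 (edgeR adjusted p = 0.00901).

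NDUFB9 (chr8:124539101-124580648, plus strand), another membrane-arm subunit, measured 187, 153, 164 and 155 CPM against 179, 184, 178 and 191 CPM. Control replicate 1 was above 3 of the shPROX1 libraries, and the log2 change of 0.15 ± 0.06 lay at the threshold (edgeR adjusted p = 0.0499). Of its exon bases, 21.0% lie under genes on the opposite strand, among them MTSS1, which fell by 0.36 on the log2 scale (edgeR adjusted p = 0.0249). NDUFS5, an intermembrane-space subunit with the highest level per kilobase of the supernumerary subunits, measured 237, 188, 209 and 216 CPM against 232, 242, 218 and 236 CPM. Its groups overlapped, and its log2 change of 0.13 ± 0.06 was not called (edgeR adjusted p = 0.0994). The uncalled members of this class ranged from -0.15 (NDUFA6) to 0.21 (NDUFS4) on the log2 scale.

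Of the 8 NDUFAF genes, which help to assemble complex I and are not part of the finished enzyme, 1 rose and 7 were not called. NDUFAF2 (chr5:60945129-61153037, plus strand) encodes a relative of NDUFA12 that holds its place during assembly. It measured 17.0, 19.8, 20.5 and 17.9 CPM in controls and 23.4, 23.8, 25.5 and 20.5 CPM in shPROX1 cells. The highest control and the lowest shPROX1 library were almost equal, and the log2 change was 0.31 ± 0.11 (edgeR adjusted p = 0.0342). NDUFAF8, an assembly factor with the highest level per kilobase of principal transcript in this class (NDUFAF2 leads with merged exons), measured 24.6, 22.7, 25.8 and 25.8 CPM against 29.8, 27.6, 23.4 and 28.8 CPM and was not called (log2 change 0.15 ± 0.10, edgeR adjusted p = 0.274). NDUFAF5, whose product modifies a core subunit, had the lowest change of the class at -0.29 ± 0.11 and also missed the threshold (edgeR adjusted p = 0.0504). The median log2 change of this class was 0.05, and 0.12 without control replicate 1. The list of 11 complex I assembly genes outside the naming rule, which includes ACAD9 and ECSIT, held 0 called genes, against 35.2% of all tested genes.

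Complex II, the succinate dehydrogenase that also works in the citric acid cycle, had 1 called gene among its 4 subunits. SDHB (chr1:17018722-17054170, minus strand), the iron-sulfur subunit, measured 136, 126, 133 and 129 CPM in controls and 140, 147, 146 and 144 CPM in shPROX1 cells. The groups did not overlap, and the log2 change was 0.14 ± 0.05 (edgeR adjusted p = 0.0342). The other subunits were not called: the flavoprotein SDHA had a log2 change of 0.13 ± 0.07, and the membrane anchors SDHC and SDHD had -0.21 ± 0.11 and -0.09 ± 0.08. Pseudogenes held counts equal to 7.16% of those of SDHA, so reads may be divided between them. None of the 4 SDHAF assembly factors was called, and their coverage was low, at 2.67 to 16.2 CPM in controls. Their log2 changes were -0.19 ± 0.19 (SDHAF1), 0.32 ± 0.16 (SDHAF2), -0.21 ± 0.13 (SDHAF3) and 0.03 ± 0.28 (SDHAF4). For 3 of the 4, all but SDHAF3, the interval did not lie within 1.5-fold. The estimate for SDHAF2 was the highest of the tested members (edgeR adjusted p = 0.121). Its interval ran from -0.005 to 0.64, so its passing 1.5-fold also reflects that high estimate.

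Complex III had the narrowest range of log2 changes among the complexes. Of its 8 tested genes 0 were called, against 13.2% of the tested members and 35.2% of all tested genes. With only 8 genes, a count of 0 cannot be told apart from the share of the members. No gene had an unadjusted edgeR p below 0.05, and DESeq2 and limma voom also called 0. The log2 changes ran from -0.10 to 0.07, and the 95% intervals together spanned -0.20 to 0.18. UQCRH, the hinge protein that contacts cytochrome c1 and the member with the highest level per kilobase of principal transcript, measured 429, 375, 431 and 390 CPM in controls and 443, 441, 410 and 409 CPM in shPROX1 cells. Its groups overlapped, with a log2 change of 0.07 ± 0.05 (edgeR adjusted p = 0.332). UQCRFS1, the Rieske iron-sulfur protein, had the lowest change of the complex, and its values were tight: 126, 122, 122 and 123 CPM against 113, 116, 117 and 115 CPM. The groups did not overlap, yet the log2 change of -0.10 ± 0.05 did not pass the test (edgeR adjusted p = 0.144). The core proteins UQCRC1 and UQCRC2 had log2 changes of -0.09 ± 0.06 and -0.01 ± 0.05.

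Complex IV held 12 tested members, of which 1 rose and 11 were not called. COX7A2L (chr2:42333546-42425088, minus strand) is related to a complex IV subunit and links complexes III and IV in supercomplexes. It measured 89.1, 84.4, 82.7 and 79.0 CPM in controls and 108, 106, 86.3 and 99.4 CPM in shPROX1 cells. Only shPROX1 replicate 3 fell below a control, and the log2 change was 0.26 ± 0.07 (edgeR adjusted p = 0.00528). COX4I1, a large subunit with a regulatory role, measured 217, 196, 205 and 190 CPM against 204, 206, 186 and 212 CPM. Its means were the same at 202 CPM, and the 95% interval of the log2 change ran from -0.11 to 0.11.

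NDUFA4, a complex IV subunit in spite of its name, measured 290, 252, 242 and 245 CPM against 289, 291, 261 and 295 CPM. Control replicate 1 alone reached the shPROX1 range, and the log2 change of 0.14 ± 0.06 missed the threshold (edgeR adjusted p = 0.0595). The uncalled complex IV members ranged from -0.14 (COX8A) to 0.14 (NDUFA4) on the log2 scale.

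**Figure D2:**
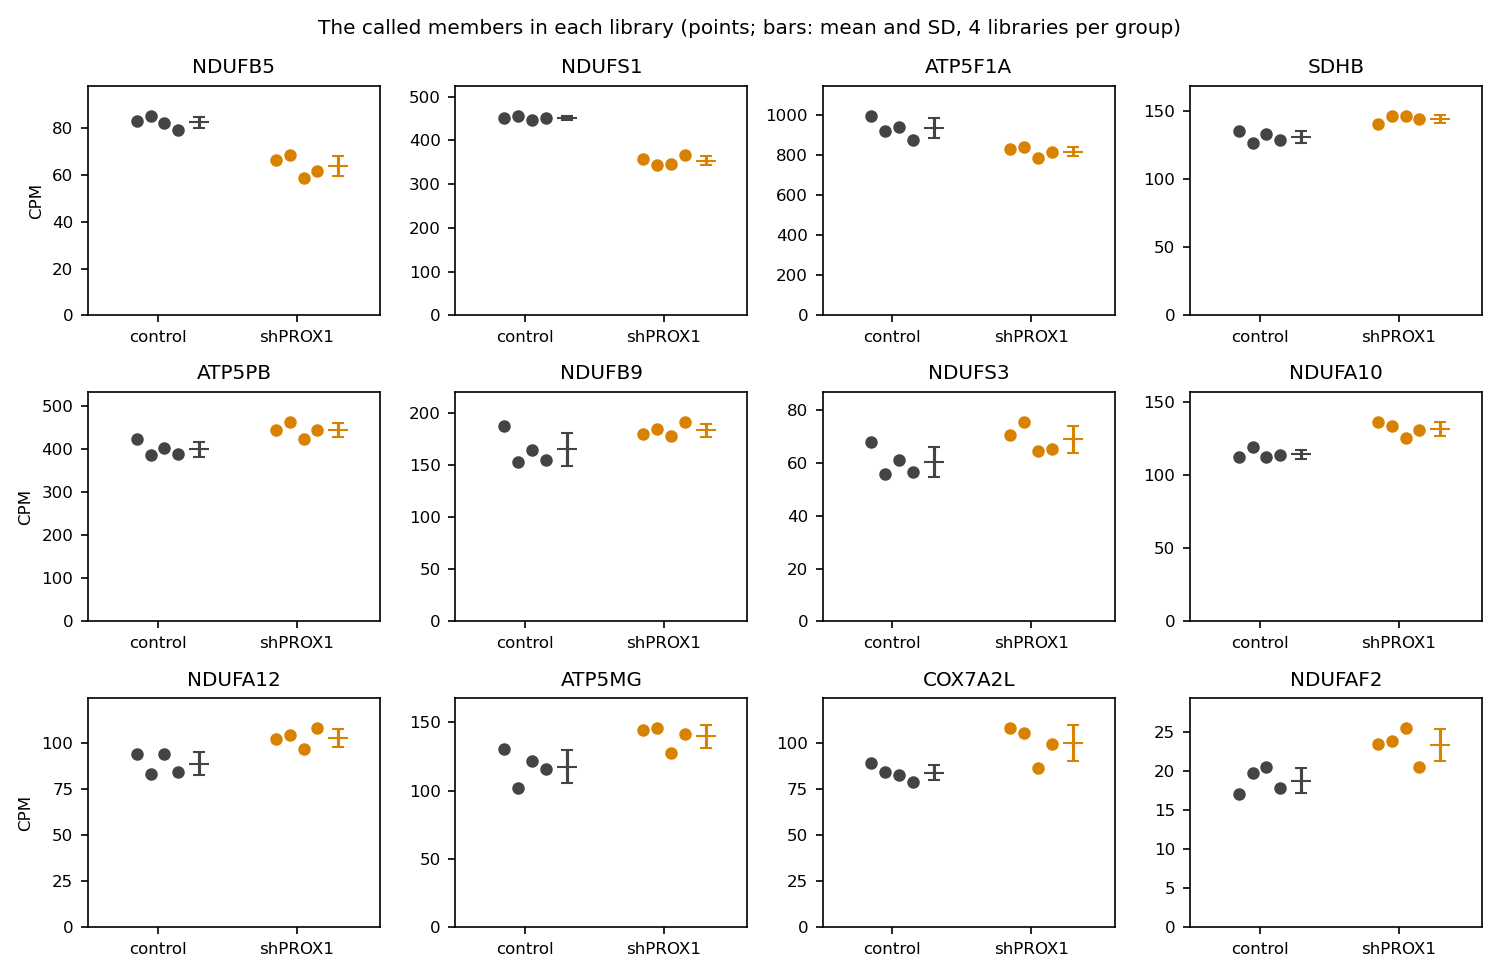
CPM of the 12 called members in each of the 4 control and 4 shPROX1 libraries, with the mean and SD beside the points; axes start at 0. NDUFB5, NDUFS1 and ATP5F1A are lower in every shPROX1 library than in any control, while NDUFB9, NDUFS3, ATP5MG and COX7A2L overlap between the groups.

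ATP synthase had 19 tested members, with 2 higher, 1 lower and 16 not called. ATP5F1A (chr18:46080248-46104334, minus strand), the alpha subunit of the catalytic head, measured 996, 922, 944 and 877 CPM in controls and 832, 841, 787 and 815 CPM in shPROX1 cells. Every shPROX1 library was below every control, and the log2 change was -0.19 ± 0.04 (edgeR adjusted p = 9.78e-04). ATP5F1B, the beta subunit that pairs with it in the head, measured 1156, 1055, 1140 and 1074 CPM against 1163, 1164, 1100 and 1143 CPM. It was not called, and the interval of its log2 change ran from -0.03 to 0.13, above the interval of -0.28 to -0.10 for ATP5F1A. The other head and central-stalk genes ATP5F1C, ATP5F1D and ATP5F1E were not called.

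ATP5PB (chr1:111448864-111462773, plus strand), the b subunit of the peripheral stalk that keeps the head from turning, measured 423, 386, 402 and 389 CPM in controls and 445, 463, 425 and 444 CPM in shPROX1 cells. The groups were separated by a narrow gap, and the log2 change was 0.15 ± 0.05 (edgeR adjusted p = 0.0132). On the opposite strand WDR77 overlaps 10.3% of its exon bases and rose by 0.41 on the log2 scale. The other 3 peripheral stalk genes were not called.

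ATP5MG (chr11:118401154-118431496, plus strand), the g subunit at the interface where ATP synthases pair, measured 130, 102, 122 and 116 CPM in controls and 144, 146, 127 and 142 CPM in shPROX1 cells. The groups overlapped through control replicate 1 and shPROX1 replicate 3, with a log2 change of 0.25 ± 0.07 (edgeR adjusted p = 0.00498). ATP5IF1, the inhibitor that stops ATP synthase from running backwards, measured 56.7, 51.8, 57.4 and 48.1 CPM against 57.7, 53.4, 54.5 and 58.5 CPM. It was not called, with a log2 change of 0.07 ± 0.07 (edgeR adjusted p = 0.489).

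The c subunit of the proton-driven ring is made from 3 genes, ATP5MC1, ATP5MC2 and ATP5MC3, whose mature proteins are the same. None of the 3 was called: the log2 changes were -0.12 ± 0.08, -0.04 ± 0.06 and 0.10 ± 0.07. On levels per kilobase of principal transcript, ATP5MC1 made up 13.8%, 15.9%, 13.3% and 14.5% of their sum in controls and 13.7%, 12.5%, 12.9% and 13.1% in shPROX1 cells. ATP5MC2 gave 43.8%, 43.9%, 46.1% and 45.6% against 43.5%, 43.5%, 43.3% and 43.3%. For ATP5MC3 the shares were 42.4%, 40.2%, 40.6% and 39.9% against 42.8%, 44.0%, 43.9% and 43.6%. The share of ATP5MC3 was thus 40.8% ± 1.13 (SD, n = 4) in controls and 43.6% ± 0.557 in shPROX1 cells, with no overlap. ATP5MC2 did not overlap either (44.8% ± 1.17 and 43.4% ± 0.128), and ATP5MC1 did. The shares depend on the transcript length taken for each gene, which is the same in all libraries, and their differences were not tested.

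**Figure D3:**
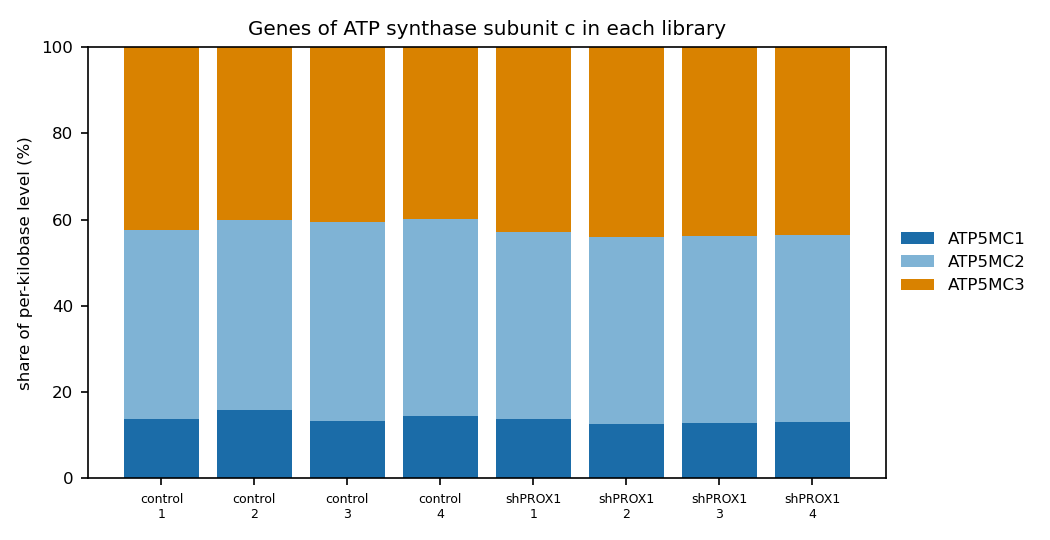
Share of ATP5MC1, ATP5MC2 and ATP5MC3 in the summed per-kilobase level of the genes for the ATP synthase c subunit, as stacked bars for each of the 8 libraries. ATP5MC3 holds 39.9% to 42.4% in controls and 42.8% to 44.0% in shPROX1 libraries.

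Several complex IV subunits have a second gene used in particular tissues, and the widespread copy held nearly all counts of each pair in RD cells. COX4I2 (the lung and hypoxia form), COX7A1 (the heart and muscle form), COX7B2 and COX8C (testis forms) had 0 counts in all 8 libraries, which allows up to 0.0442%, 0.0635%, 0.0693% and 0.105% of the counts of the pair with COX4I1, COX7A2, COX7B and COX8A. COX6A2, the heart and muscle form, had 5 counts in controls and 6 in shPROX1 cells, against 5041 for COX6A1. It thus held 0.218% of the pair (95% exact Clopper-Pearson interval 0.109% to 0.389%). COX6B2, a testis form, had 7 and 5 counts, or 0.345% of the pair with COX6B1 (0.178% to 0.602%). These limits and intervals cover counting error only, and no change of a tissue form with PROX1 silencing was detectable at this depth in COX6A2 or COX6B2.

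The widespread forms were not called. COX6A1 measured 153, 136, 145 and 140 CPM against 165, 171, 134 and 156 CPM (log2 change 0.12 ± 0.06). COX6B1 measured 120, 90.6, 105 and 95.01 CPM against 108, 105, 109 and 96.3 CPM (0.02 ± 0.07), and COX7A2 measured 150, 125, 154 and 131 CPM against 144, 150, 130 and 144 CPM (0.02 ± 0.07). COX7B measured 134, 120, 134 and 125 CPM against 129, 143, 127 and 120 CPM (0.01 ± 0.06). COX8A measured 98.6, 96.0, 84.4 and 79.0 CPM against 78.3, 79.2, 83.0 and 84.5 CPM (-0.14 ± 0.07). The groups overlapped in all 5.

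NDUFA4L2, a relative of NDUFA4 known to be induced by low oxygen, was too low to be tested but stood out among the rare copies. It had 3, 6, 4 and 5 counts in controls and 1, 0, 1 and 1 in shPROX1 libraries, against 9080 counts for NDUFA4. With 18 and 3 counts in all, the ratio of shPROX1 to control was 0.178 after scaling (95% exact counting interval 0.0337 to 0.611). Every control was above every shPROX1 library in CPM, and the exact two-sided permutation p was 0.0286, the smallest that 70 arrangements of 4 against 4 libraries can give. It was 1 of 12 members below the filter, and no adjustment over them was made. Without a filter on low counts edgeR gave a log2 change of -2.30 ± 0.78 (adjusted p = 0.0263), a value that rests on few counts and on the prior count of the fit. DESeq2 gave no adjusted p.

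Levels can be compared between genes only per length, and the values here are mean control CPM per kilobase of the principal transcript of GENCODE 29. Where several principal transcripts of a gene tied, their median length was taken. The median member stood at 158 CPM per kilobase in complex IV, 137 in complex V, 88.4 in complex III, 54.3 in the complex I core, 51.8 in its supernumerary subunits, 15.7 in its assembly factors and 7.58 in complex II with its assembly factors. The 4 SDH subunits alone had a median of 45.9. The highest members were UQCRH at 672 ± 46.4 (SD, n = 4), ATP5F1B at 602 ± 26.7, NDUFS5 at 389 ± 37.0 and COX4I1 at 282 ± 16.4 CPM per kilobase. The ranges of 1 SD around UQCRH and ATP5F1B meet, and neighbouring medians such as those of the complex I core and supernumerary genes are close beside the spread among members. With the merged exons of all transcripts as the length, the medians fell to 68.4 in complex IV, 30.5 in complex V, 49.5 in complex III, 16.5 in the complex I core, 25.6 in its supernumerary subunits, 13.6 in its assembly factors and 7.16 in complex II, so that the order of complexes III and V and of the complex I classes turned. The leading members changed as well: ATP5F1B stood at 476, NDUFS5 at 387 and UQCRH at 288 CPM per kilobase of merged exons. COX4I1 stood at 42.2 there, below COX8A at 176.5, which led complex IV, while NDUFS1 led the complex I core and NDUFAF2 the assembly factors. SDHC, at 3.07 CPM per kilobase, has a principal length of 13566 bases, far above that of the other SDH subunits, and its level per length is uncertain for that reason. The same limit applies to ATP5S (10212 bases), NDUFA9 (8363) and UQCRB (5575), each the lowest tested member of its class per kilobase.

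**Figure D4:**
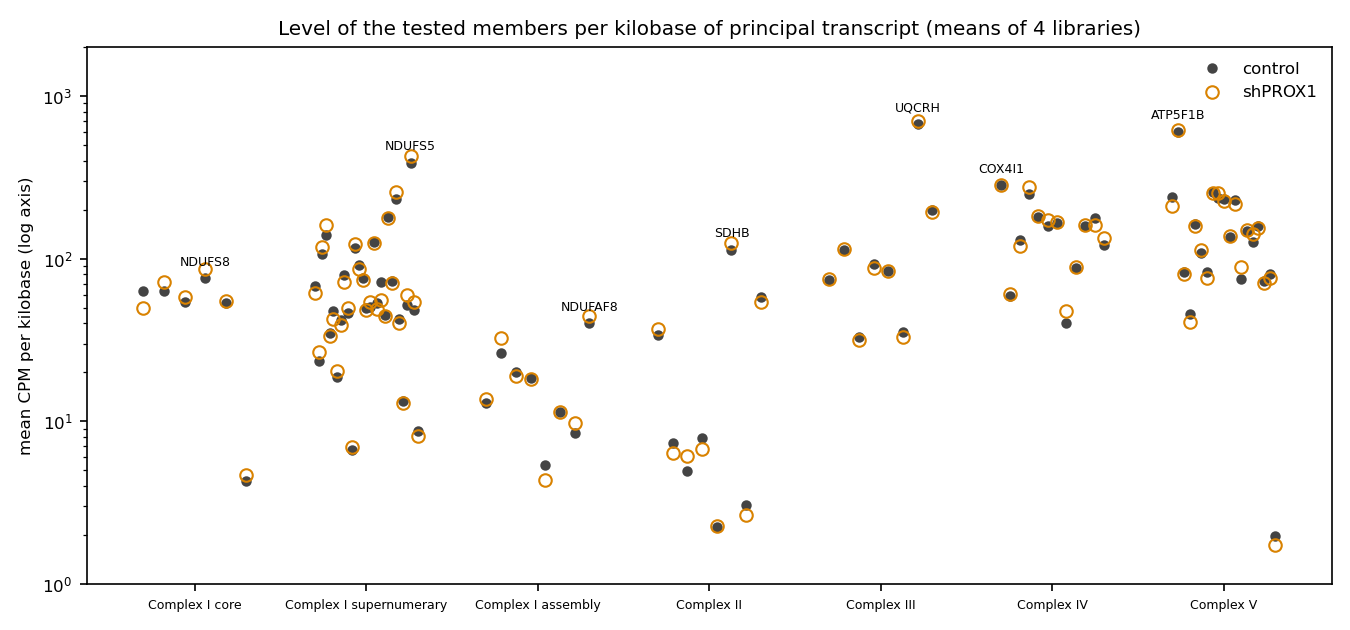
Mean CPM per kilobase of principal transcript (log axis) of the tested members by complex, 1 of them not drawn, with control means as filled points and shPROX1 means as open circles; the highest member of each class is named. UQCRH at 672 and ATP5F1B at 602 CPM per kilobase lead in controls, and open and filled points of a gene lie close together.

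As a whole the members took 1.05% ± 0.0482 of all counts in controls and 1.03% ± 0.0246 in shPROX1 cells (SD, n = 4). Their summed level was 11196, 10056, 10503 and 10137 CPM in controls and 10597, 10694, 10039 and 10500 CPM in shPROX1 cells. Control replicate 1 was the highest of the 8, and the groups overlapped. The sum differed by 1.12-fold between the highest and lowest library.

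The 13 chain genes of the mitochondrial genome, read from the same libraries, were far less even. Their summed level was 804, 4434, 4507 and 2929 CPM in controls and 1490, 1180, 2628 and 1024 CPM in shPROX1 cells, a 5.61-fold range. Control replicate 1 was below all other 7 libraries for 13 of the 13 genes, and no gene had groups that did not overlap. The fit called 10 lower and 0 higher, with a median log2 change of -1.12, but DESeq2 and limma voom called 0. Exact two-sided permutation p-values for these genes ran from 0.171 to 0.629. The count called lower was 12 without control replicate 1, 2 without control replicate 2 or 3 and 3 without shPROX1 replicate 2 or 4, and 12 without shPROX1 replicate 3. Inside the control group these genes differed from 2.06-fold to 28.9-fold between libraries.

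**Figure D5:**
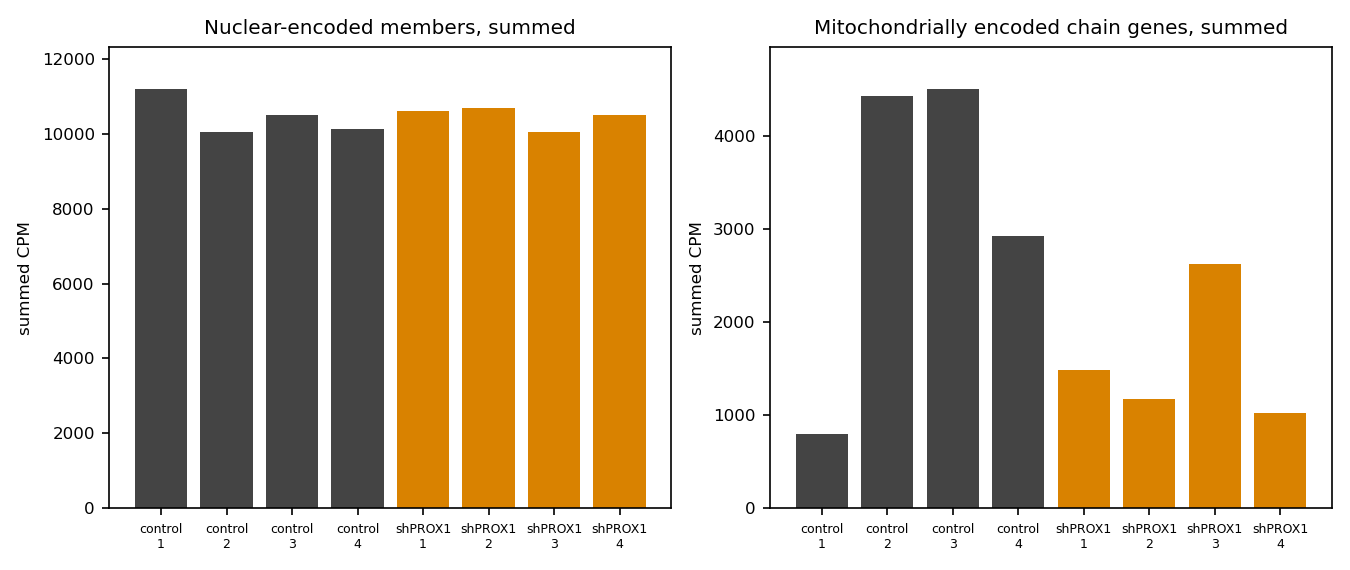
Summed CPM of the nuclear-encoded members (left) and of the 13 chain genes encoded in the mitochondrial genome (right), as 1 bar per library from 0. The nuclear sum stays between 10039 and 11196 CPM, while the mitochondrial sum runs from 804 CPM in control replicate 1 to 4507 CPM in control replicate 3.

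Lists of genes that work beside the members held called genes in both directions, to be read against the 35.2% called over all tested genes. Among 10 electron carriers and other chain genes outside the naming rule, 1 rose and 1 fell (20% called). CYCS, cytochrome c, measured 412, 431, 405 and 414 CPM in controls and 512, 487, 468 and 470 CPM in shPROX1 cells, a log2 change of 0.22 ± 0.04 (edgeR adjusted p = 4.75e-04). GPD2, the glycerol phosphate dehydrogenase that feeds electrons to coenzyme Q, measured 196, 217, 196 and 200 CPM against 172, 167, 161 and 158 CPM, a log2 change of -0.30 ± 0.05 (edgeR adjusted p = 8.97e-05). Neither gene overlapped between the groups. CYC1, the cytochrome c1 of complex III that the naming rule leaves out, was not called (0.09 ± 0.05, edgeR adjusted p = 0.135).

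Assembly genes outside the rule gave 2 higher and 0 lower of 6 for complex III (33.3% called), 2 and 4 of 22 for complex IV (27.3%) and 1 and 1 of 6 for ATP synthase (33.3%). These shares are near the 35.2% of all tested genes. The complex III assembly factors UQCC1 and BCS1L each rose by 0.27 on the log2 scale. In complex IV assembly COX20, which handles the COX2 subunit, rose by 0.46, and COA5, an early assembly factor, fell by 0.52. OXA1L, which inserts proteins into the inner membrane, fell by 0.30, and TMEM70, which helps to build the c ring, rose by 0.24.

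In coenzyme Q synthesis 1 of 13 genes rose and 1 fell (15.4% called). In the citric acid cycle 3 of 13 rose and 2 fell (38.5%), again a share near that of all tested genes. The cycle enzymes that changed included 3 parts of the oxoglutarate dehydrogenase complex, which went both ways: OGDH at -0.51, DLD at -0.36 and DLST at 0.23 on the log2 scale. The others were FH at 0.32 and IDH3A at 0.37. Of 17 tested regulators of respiratory gene expression, 2 were called (11.8%). The nuclear receptor ESRRA fell from 39.0, 37.5, 42.7 and 37.96 CPM to 30.3, 24.8, 21.2 and 26.7 CPM, a log2 change of -0.60 ± 0.10 (edgeR adjusted p = 5.19e-05), and the mitochondrial DNA polymerase POLG rose by 0.21. NRF1, GABPA, YY1 and TFAM, factors with known sites or roles in respiratory gene expression, were not called. The groups of YY1 did not overlap, with a log2 change of 0.11 ± 0.05 (edgeR adjusted p = 0.0699). PPARGC1A, ESRRB and ESRRG on the same list had 16, 20 and 4 counts in all and were too low to be tested.

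Promoter sequences of RefSeq on GRCh38.p14, from 250 bases before to 50 bases after each annotated start, were matched to 82 of the 103 members, 76 of them tested. They were searched on both strands for the 10-base NRF1 motif, whose letters stand in capitals in the windows below, and for CCGGAAG (GABPA), AANATGGCG (YY1) and AAGGTCA (estrogen-related receptors such as ESRRA), as exact matches. At least 1 of the 4 was found in 49 of the 76 tested members (64.5%), against 41.9% of the tested genes and 24.1% of all genes in the table. The NRF1 letters were found in 25.0% of these members and 14.1% of the tested genes (6.98% of the table), and the GABPA letters in 32.9% and 23.7% (12.2%). The YY1 letters were found in 23.7% and 8.55% (3.85%), and the receptor letters in 14.5% and 3.66% (4.80%). No matches of different motifs overlapped, and a gene with several starts was counted once.

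The windows below are a selection that leaves out the matches of NDUFS3, UQCR10 and UQCR11. They come from members that fell or rose and, for NRF1, also from complex III members that were not called. Each has 30 bases, 5′ to 3′ on the strand of the gene, with the match in capitals. The capitals in both NDUFS1 windows, both ATP5F1A windows, both ATP5MG windows and those of UQCRC1 and UQCRFS1 are the motif read on the other strand. NDUFS1 and ATP5F1A fell, NDUFA12, SDHB and ATP5MG rose, and UQCRC1 and UQCRFS1 were not called.
NDUFS1, GABPA, chr2:206159584-206159613, minus strand: aggctggggccaCTTCCGGcggaactgcgg
NDUFS1, YY1, chr2:206159411-206159440, minus strand: ttagccgaggcCGCCATATTgaataagcga
ATP5F1A, GABPA, chr18:46098327-46098356, minus strand: cgaggggcagtaCTTCCGGgtcaggtgggc
ATP5F1A, receptor, chr18:46098300-46098329, minus strand: ggccggctgtctTGACCTTctttgcggctc
ATP5MG, GABPA, chr11:118401595-118401624, plus strand: ctgcagcgggtcCTTCCGGcgggtgacatt
ATP5MG, receptor, chr11:118401559-118401588, plus strand: aaagaggcggccTGACCTTggaagtgggac
SDHB, GABPA, chr1:17054143-17054172, minus strand: ccacccgggaaaCCGGAAGccgcctcccac
SDHB, YY1, chr1:17054004-17054033, minus strand: cgtcaggagccAAGATGGCGgcggtggtcg
SDHB, receptor, chr1:17054239-17054268, minus strand: cccctttctgagAAGGTCAcgggggaagcc
NDUFA12, NRF1, chr12:95003794-95003823, minus strand: acctagctctGCGCACGCGCagagccacca
UQCRC1, NRF1, chr3:48609674-48609703, minus strand: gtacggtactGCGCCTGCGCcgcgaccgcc
UQCRFS1, NRF1, chr19:29213163-29213192, minus strand: gcgcctcctcGCGCCTGCGCcgtggttgga

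Members on both sides of 0 held the same letters. ATP5F1A at -0.19 and ATP5MG at 0.25 on the log2 scale both hold the GABPA and receptor letters, and NDUFS1 at -0.35 and SDHB at 0.14 both hold those of GABPA and YY1. Of the 10 called members with a promoter in the table, 5 held the GABPA letters (3 higher and 2 lower), 3 those of YY1 (2 and 1), 3 those of the receptors (2 and 1) and 1 those of NRF1. The median log2 change of members with and without the letters was -0.03 and 0.02 for GABPA, 0.10 and -0.01 for YY1, 0.01 and -0.01 for NRF1 and 0.02 and -0.00 for the receptors. A match describes letters in a window and not a bound site. NDUFA10, NDUFAF2, COX7A2L and ATP5PB held none of these letters in their windows.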

How the data were processed

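Total RNA libraries of 4 control and 4 shPROX1 cultures were prepared with a directional kit, per the labels' protocols. The authors deposited raw counts of 58302 Ensembl genes for each library, and 0 of these entries lack a gene. Per the submitters' processing notes the tools were FastQC, HISAT2, HTSeq and DESeq2, with GRCh38 (hg38) as the genome. Tool versions, the gene annotation and the strand setting of HTSeq are not given in the sources used here. Reads may therefore be shared where genes overlap. Of the tested members, 30 have at least 10% of their exon bases in another gene.

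GENCODE 29 held 58039 of the 58302 identifiers and gave symbols, coordinates (1-based) and lengths; ATP5S is its name for DMAC2L. The main test was the quasi-likelihood F test of edgeR 4.0.16 (R 4.3.3) on group alone, with TMM factors and the filterByExpr filter, with Benjamini-Hochberg adjustment over 12392 genes. CPM uses TMM-scaled totals, and 3 counts, the limit that a count of 0 allows, equal 0.609 to 0.806 CPM. The biological coefficient of variation was 6.41%. Single values were tested by exact two-sided permutation of 70 arrangements. If the libraries are not separate cultures, p-values measure only their technical spread. The 12 pairs of libraries inside groups all gave a chi-square above its degrees of freedom, beyond sampling noise. The ratio was 2.39 to 6.34 for control pairs and 1.19 to 2.16 for shPROX1 pairs. Such a ratio cannot tell separate cultures from separate preparations of the same culture. Fits were tested on simulated data.

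Members and gene lists were chosen with earlier results of these data known. Values in every library are given for up to 3 risen and 3 fallen members per class, its highest member per kilobase, the isoform pairs and ATP5IF1; UQCRFS1, CYCS, GPD2 and ESRRA were added with their values known. The fits were repeated with upper-quartile and RLE factors, 2 other filters, DESeq2 1.42.0, limma 3.58.1 voom, a replicate block, each library left out, a threshold of 0.01, a 1.5-fold test, mitochondrial and small structural RNA genes removed, a GC and length offset (loess span 0.5), NDUFA4 in complex I and read-through genes left out. The values of 1 uncalled member are not reported here, although it is part of the counts. Merged exon length was chosen after seeing the data. Tables were made with pandas 2.3.3, scipy 1.17.1 and numpy 2.4.6 in Python 3.11.15, and plots with matplotlib 3.10.9.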

Additional observations from a re-analysis of the deposited data

Results flagged for a closer look

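Among the 4 libraries of each group, 30 items (60 groups) were checked for 1 library far from the rest, by its gap to the nearest library over the whole range (against Dixon's 95% critical value); chance alone marks about 5% of groups, and 2 were marked. NDUFA10 stood at 119.2 CPM in control replicate 2, above the 112.6 to 113.7 CPM of the other controls. NDUFS8 stood at 54.1 CPM in control replicate 1, below the 61.0 to 62.1 CPM of the other controls.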

How the results depend on the processing

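Of the values for named members under other settings, 443 kept their direction and side of the threshold, 52 lost the call, 19 gained one and 18 changed sign, all 18 in uncalled members near 0. All 52 losses fell on the 12 called members, since an uncalled member has no call to lose. Of these 12, 7 kept the call in every fit that tested against no change, and 0 kept it against 1.5-fold. Members called higher numbered 9, and 5 with DESeq2, 4 at a threshold of 0.01, 0 against 1.5-fold (369 of all genes) and 4 to 16 with a library left out. Members called lower numbered 3, and 0 against 1.5-fold and 3 to 5 with a library left out. The median log2 change with a library left out ran from 0.055 to 0.11 for the complex I core and from 0.019 to 0.12 for its assembly factors. In the main fit the core median of 0.099 was the value of NDUFV2, a gene with few counts. COX4I1 (-0.00065) turned to 0.0051 with DESeq2, 0.00075 with the GC and length offset, 0.0041 with RLE factors, 0.0075 at 1 CPM, 0.0013 with voom, 0.0093 with no filter and 0.00043 without mitochondrial and small RNA genes. With a library left out the log2 change ran from -0.027 to 0.039 for COX4I1, from -0.066 to 0.016 for ATP5MC2, from -0.029 to 0.11 for COX6B1, from -0.027 to 0.070 for COX7A2 and from -0.036 to 0.050 for COX7B. The cause was not tested.

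Replicate numbers are shared between groups but did not pair the libraries (same-number correlations of deviations -0.051 to 0.050; 1 of 4 controls correlated best with its own number). With the replicate block 8 members were called higher and 3 lower, and 4187 of all genes; NDUFB9, NDUFS3 and SDHB lost their calls, and NDUFA4 and NDUFS8 gained one. Few counts limit NDUFV2, NDUFA7, the SDHAF genes and the tissue forms; for NDUFV2 and NDUFA7 the part of same-strand overlap in this was not tested.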
